A study of Mus musculus with 13 samples.

Results

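The genes described here are 8 cell-surface markers by which immunologists stage blood and lymphoid progenitors: Cd34, Cd24a, Cd27, Cd93, Cd44, Cd48, Ptprc and Bst1. They were taken by name, as the rows whose RefSeq identifier maps to these mouse symbols, and they make up 8 of the 24072 identifiers in the deposited tables. Each symbol had 1 row, and all 8 passed the filter on low counts, Bst1 with few reads. The same filter removed Bst1 when only the Ly6D+Gfra2- and Ly6D-Gfra2- libraries were fitted, so it passed through its levels in Ly6D+Gfra2+ libraries.

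Lymphocytes arise in bone marrow from multipotent progenitors through the common lymphoid progenitor (CLP), and each step is recognised by surface proteins that are lost or gained. CD34, CD44, CD27 and CD48 are familiar from stem and multipotent cells and are used to grade them, whereas CD24, CD93 and BST1 (CD157) are used to recognise B-cell precursors. CD45, the product of Ptprc, is carried by nearly all nucleated blood cells.

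RNA sequencing was performed on total RNA of 13 libraries of CLP, all from wild-type (WT) C57BL/6 mice. Cells of the bone marrow (BM) were sorted by flow cytometry (FACS) on Ly6D, a surface protein that appears as CLP turn toward the B lineage, and Gfra2, a receptor subunit for the neurotrophic factor neurturin. There were 6 libraries of Ly6D-Gfra2- cells (replicates 1 to 6), 4 of Ly6D+Gfra2- cells (replicates 1, 2, 5 and 6) and 3 of Ly6D+Gfra2+ cells (replicates 4, 5 and 6). Age, sex, the full CLP gate and any pooling of mice are not stated in the labels, nor is whether replicates came from separate animals. A p-value here therefore reflects only how these libraries varied, which may be technical. Library names begin with P (Ly6D-Gfra2- replicates 1 to 3 and Ly6D+Gfra2- replicates 1 and 2) or T (all others). The meaning of this prefix is not stated, and every Ly6D+Gfra2+ library is of prefix T. Replicate numbers were read from the ends of the library names, and that these ends number replicates is an assumption.

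Library totals ran from 6892728 to 23705975 counts, between 10837 and 13969 identifiers had a count, and 3 counts in a library came to 0.127 to 0.435 CPM. Ly6d stood between 158 and 507 CPM in all Ly6D+ libraries, and at 0.623 to 8.30 CPM in 5 of 6 Ly6D-Gfra2- libraries. The library labelled Ly6D-Gfra2- replicate 3 held 213 CPM of Ly6d and goes against its label on this transcript, so results are also given without it. The 8 CLP genes listed were detected in every library, but at unlike levels. Lowest values were 2908 CPM for Dntt, 761 CPM for Flt3, 438 CPM for Notch1, 340 CPM for Ptprc and 311 CPM for Il7r. For Kit, Cd34 and Rag1 they were 93.1, 38.9 and 37.6 CPM. Mean Rag1 was 93.4, 189 and 1309 CPM in Ly6D-Gfra2-, Ly6D+Gfra2- and Ly6D+Gfra2+ libraries. Summed over 12 granulocyte and monocyte markers, levels in CPM ran from 635 to 1427 over the Ly6D-Gfra2-, from 426 to 580 over the Ly6D+Gfra2- and from 198 to 438 over the Ly6D+Gfra2+ libraries, where Ltf, Camp, Ngp and Ms4a3 were at 0. 

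Sequences are shown for Cd24a, Cd34 and Cd44, whose levels in Ly6D+Gfra2+ libraries did not overlap those in Ly6D-Gfra2- libraries. Bst1, with few reads, did not overlap either and is not shown. The coding part of Cd24a is 231 bases in 2 exons of a transcript of 1816 bases (GENCODE M21, GRCm38, chr10:43579254-43582765, plus strand), so most of what the Cd24a row can count lies outside it. Capitals mark the start and stop codons.
Cd24a coding sequence: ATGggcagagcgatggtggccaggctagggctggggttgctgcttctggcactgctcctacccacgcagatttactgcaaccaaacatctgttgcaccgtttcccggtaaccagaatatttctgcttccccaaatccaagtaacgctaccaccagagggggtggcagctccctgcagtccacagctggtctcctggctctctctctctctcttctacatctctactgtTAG
The 250 bases before the start sites of Cd34 (chr1:194938571-194938820, plus strand) and Cd44 (chr2:102901666-102901915, minus strand) are shown because every Ly6D+Gfra2+ library lay below every Ly6D-Gfra2- library for both. They come from RefSeq on GRCm38.p6, and capitals mark motif matches.
Cd34 upstream: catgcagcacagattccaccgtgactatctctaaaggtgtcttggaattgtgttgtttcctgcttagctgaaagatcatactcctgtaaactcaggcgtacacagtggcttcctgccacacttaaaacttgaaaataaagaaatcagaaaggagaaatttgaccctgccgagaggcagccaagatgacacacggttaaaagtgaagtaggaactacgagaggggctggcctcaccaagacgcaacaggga
Cd44 upstream: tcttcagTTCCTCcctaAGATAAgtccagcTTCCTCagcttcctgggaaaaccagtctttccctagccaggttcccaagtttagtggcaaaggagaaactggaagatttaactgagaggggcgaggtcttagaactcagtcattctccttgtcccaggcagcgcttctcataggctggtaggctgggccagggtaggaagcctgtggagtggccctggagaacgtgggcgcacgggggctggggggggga
The motifs searched, on both strands and from 250 bases before to 50 after the start, were the GATA motif AGATAA (found in 11.2% of 32851 promoters), the ETS motif CCGGAAG (8.86%), the PU.1 motif GAGGAA (28.3%), the RUNX motif TGTGGT (16.8%), the E box CAGCTG (16.3%) and the EBF palindrome (0.904%), which is TCCC and GGGA with any 2 bases between. None of these motifs occurred in the Cd34 window. The Cd44 window held GATA at position -233 and PU.1 at positions -243 and -220, counted from the start site, with no overlap among them. The table also had windows for Cd27, with no match, for Cd48, with ETS at 6 and RUNX at -76, and for 2 start sites of Ptprc, of which one held PU.1 at -158 and the other GATA at -25 and E box at 23. Cd24a, Cd93 and Bst1 were not matched. A match describes letters and is not a bound site.

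Levels are given as CPM, counts per 1000000 counts of the library after TMM scaling, as mean ± SD over libraries. Differences are log2 fold changes with the standard error (SE) of an edgeR quasi-likelihood fit to all 13 libraries with a term for the prefix, and a gene was called at a Benjamini-Hochberg adjusted p under 0.05 over 12722 genes. Between Ly6D+Gfra2- and Ly6D-Gfra2- cells, 0 of the 8 markers were called, beside 0% of all genes (599 genes, 4.71%, had an unadjusted p under 0.05, with Cd34 and Ptprc among them, and DESeq2 and limma voom called 0 of the markers and 54 genes, 0.363%, and 1 gene, 0.00786%). From Ly6D+Gfra2- to Ly6D+Gfra2+ cells, Cd24a rose 3.67-fold and was the 1 marker called, beside 0.409% of all genes. From Ly6D-Gfra2- to Ly6D+Gfra2+ cells, 3 of the 8 were called, beside 1.39% of all genes: Cd34 fell to a level 6.16-fold lower, and Cd24a and Cd93 rose 3.67-fold and 1.64-fold. These comparisons share libraries and are not independent of each other.

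**Figure D1:**
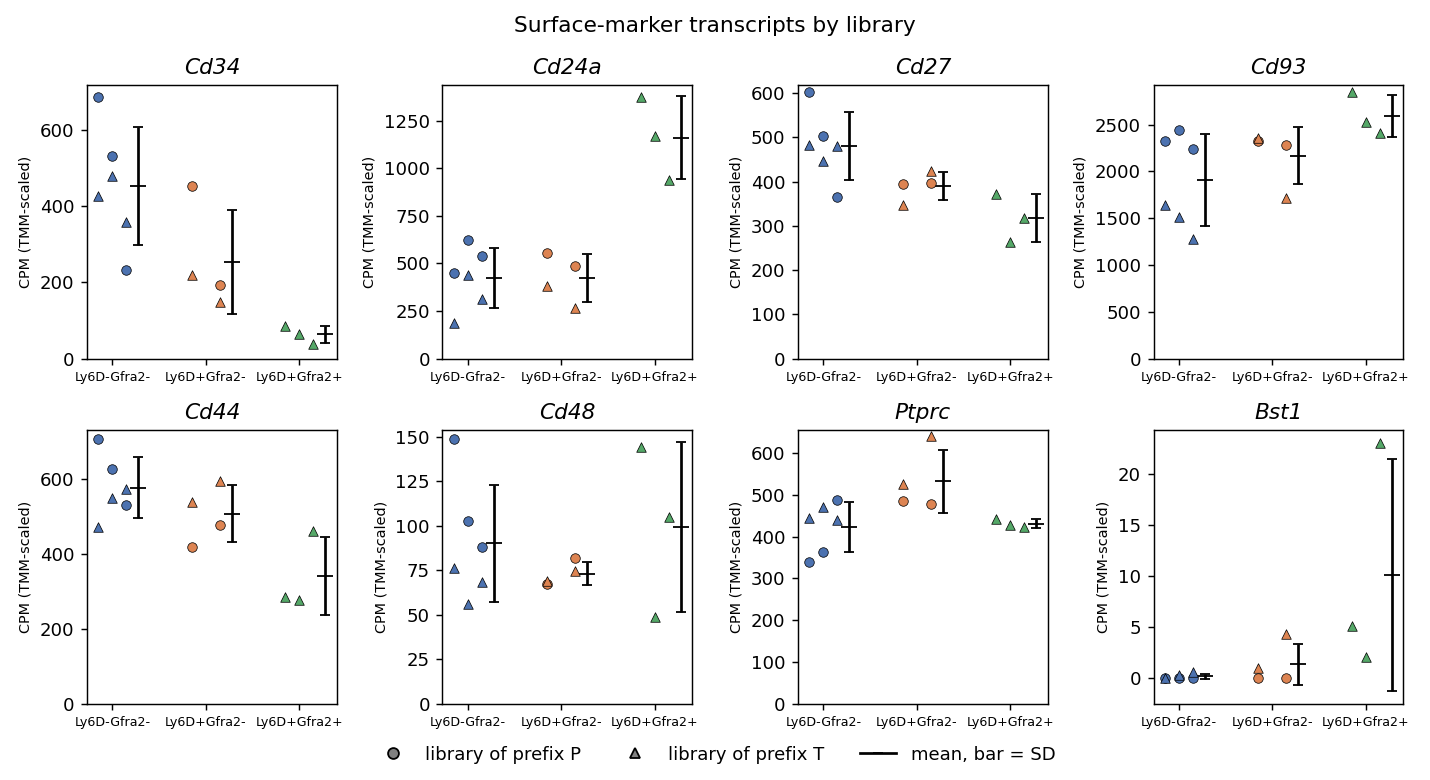
Level of each marker in each of the 13 libraries (y axis, TMM-scaled CPM, 1 panel per gene) by sorted group (x axis), with circles for prefix P, triangles for prefix T and black bars for mean and SD. The 3 Ly6D+Gfra2+ libraries lie between 38.9 and 85.7 CPM for Cd34, below all others, and between 938 and 1373 CPM for Cd24a, above all others.

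The overlap of single libraries gave a like picture. No marker separated the Ly6D+Gfra2- from the Ly6D-Gfra2- libraries, where 1.53% of genes did so in either direction. Between the Ly6D+Gfra2+ and Ly6D+Gfra2- libraries, 4 of the 8 did not overlap, beside 9.71% of genes: Cd24a and Cd93 lay higher, and Cd34 and Ptprc lay lower in Ly6D+Gfra2+. Between Ly6D+Gfra2+ and Ly6D-Gfra2- the 4 were Cd24a and Bst1, higher, and Cd34 and Cd44, lower, beside 10.2% of genes. As Bst1 passed the filter through its levels in Ly6D+Gfra2+ libraries, its separation was in part set by the filter and is only a description. The median log2 fold change of the 8 markers was -0.09, 0.11 and 0.17 in the 3 comparisons, in the order above, against -0.01, 0.03 and 0.01 over all genes tested. The group mean was highest in Ly6D-Gfra2- and lowest in Ly6D+Gfra2+ for Cd34, Cd27 and Cd44, with Ly6D+Gfra2- between, an order shared by 19% of all genes. The opposite order held for Cd93 and Bst1 and for 18.8% of all genes.

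Cd34 encodes a sialomucin of stem and progenitor cells and lies at chr1:194938821-194961292 on the plus strand (NM_001111059, GRCm38.p6). In Ly6D-Gfra2- cells the lowest, median and highest libraries held 234, 453 and 686 CPM. Ly6D+Gfra2- replicates 1, 2, 5 and 6 held 452, 192.5, 218.5 and 148 CPM. Ly6D+Gfra2+ replicates 4, 5 and 6 held 85.7, 64.7 and 38.9 CPM. All 3 Ly6D+Gfra2+ libraries were thus below the lowest of the other 10, while Ly6D+Gfra2- replicate 1 lay inside the Ly6D-Gfra2- range and the other 3 lay below it. The lowest Ly6D-Gfra2- library was the library labelled replicate 3, the one with Ly6d transcript.

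The group means of Cd34 were 453 ± 154 (n = 6), 253 ± 136 (n = 4) and 63.1 ± 23.4 CPM (n = 3). Cd34 fell between Ly6D-Gfra2- and Ly6D+Gfra2+ cells, with a log2 fold change of -2.62 (SE 0.40; edgeR adjusted p = 0.00388). A fit that omitted the library labelled Ly6D-Gfra2- replicate 3 gave -2.69 (SE 0.34; edgeR adjusted p = 0.000752), and prefix T libraries alone gave -2.74 (SE 0.34; edgeR adjusted p = 0.00296, beside 0.487% of genes called). It was not called by limma voom with quality weights, which called 0.857% of genes and put it at -2.85 (SE 0.73; adjusted p = 0.0747). Of 8 granulocyte and monocyte markers tested, 7 had a negative log2 fold change in this comparison (median -1.19 over the 8). edgeR called 2 of them, Mpo (-1.75) and S100a9 (-10.32), DESeq2 also Ctsg, and limma voom 0. S100a9 was uneven over the Ly6D-Gfra2- libraries, at 33.3 ± 70.5 CPM with a range from 0 to 177 CPM. The part of granulocytes and monocytes in the Cd34 result was not tested. In these bulk libraries, fewer cells that carry a transcript and less of it per cell cannot be told apart.

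The adjacent steps for Cd34 did not pass the threshold in this fit. From Ly6D+Gfra2- to Ly6D+Gfra2+ the log2 fold change was -1.73 (SE 0.42; edgeR adjusted p = 0.0791), with groups that did not overlap. DESeq2, which called 5.34% of genes, called this difference (-1.73; adjusted p = 0.00629). In edgeR it was called with library size alone in place of TMM (-1.91; adjusted p = 0.0477, beside 0.377% of genes) and with no filter on low counts (-1.74; adjusted p = 0.00521, beside 1.01%). It was also called with no prefix term (-2.002; adjusted p = 0.0317, beside 0.81%) and where the replicate number replaced the prefix (-1.73; adjusted p = 0.0222, beside 0.197%). Between Ly6D+Gfra2- and Ly6D-Gfra2- it was -0.89 (SE 0.32; edgeR adjusted p = 0.887), and -1.07 (SE 0.28; edgeR adjusted p = 0.358) when the library labelled Ly6D-Gfra2- replicate 3 was left out. Within prefix T, the 2 Ly6D+Gfra2- libraries lay below all 3 Ly6D-Gfra2- libraries, a separation shown by 25.2% of genes in either direction.

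An antisense transcript complicates the Cd34 row. The long noncoding gene Gm16897 (chr1:194955759-194976959, GRCm38.p6, minus strand) overlaps the end of Cd34, and 102 of the 2505 stretches of 50 bases in the Cd34 transcript (4.07%) also occur in it on the other strand. Gm16897 has its own row, with 88.2 ± 26.6, 43.9 ± 16.1 and 11.9 ± 10.1 CPM in Ly6D-Gfra2-, Ly6D+Gfra2- and Ly6D+Gfra2+ libraries. It fell between Ly6D-Gfra2- and Ly6D+Gfra2+, with a log2 fold change of -2.94 (SE 0.64; edgeR adjusted p = 0.0336). The strand setting of the counting is not given, so reads of the overlap cannot be assigned to either gene.

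Cd44 encodes a receptor for the matrix polysaccharide hyaluronan that is high on progenitors entering the lymphoid and thymic paths (chr2:102811141-102901669, minus strand, NM_009851). Ly6D-Gfra2- libraries held 474, 562.5 and 709 CPM at the lowest, median and highest. Ly6D+Gfra2- replicates 1, 2, 5 and 6 held 420.1, 477, 541 and 596 CPM, and Ly6D+Gfra2+ replicates 4, 5 and 6 held 287, 278 and 462.5 CPM. All Ly6D+Gfra2+ libraries were below all Ly6D-Gfra2- libraries, though replicate 6 lay inside the Ly6D+Gfra2- range. The log2 fold change of -0.76 (SE 0.23; edgeR adjusted p = 0.116) was not called, and its interval of 2 SE on each side ran from -1.21 to -0.30. Leaving out Ly6D+Gfra2+ replicate 6 gave -1.03 (SE 0.23; edgeR adjusted p = 0.0292), and DESeq2 on all libraries, with 7.18% of genes called, gave -0.75 (SE 0.25; adjusted p = 0.0356), so the call turned on that library and on the tool. Against Ly6D+Gfra2- cells the value was -0.57 (SE 0.23; edgeR adjusted p = 0.302).

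Cd27 encodes a costimulatory receptor of the tumour necrosis factor receptor family, and its protein separates early lymphoid and stem cell subsets (chr6:125232620-125237136, minus strand, NM_001033126). Its levels were 480.4 ± 76.7, 391 ± 31.8 and 318 ± 53.5 CPM in Ly6D-Gfra2-, Ly6D+Gfra2- and Ly6D+Gfra2+ libraries. Single libraries held 366, 482 and 602 CPM (lowest, median and highest Ly6D-Gfra2-), 394, 397.5, 347 and 424 CPM (Ly6D+Gfra2- replicates 1, 2, 5 and 6) and 371, 264 and 318.5 CPM (Ly6D+Gfra2+ replicates 4, 5 and 6). Neighbouring groups overlapped, and the lowest Ly6D-Gfra2- value, from the library labelled replicate 3, was below the highest Ly6D+Gfra2+ value. The largest of its 3 fitted differences was -0.57 (SE 0.20; edgeR adjusted p = 0.193), between Ly6D+Gfra2+ and Ly6D-Gfra2-, with an interval from -0.98 to -0.16. Without that library it was -0.60 (SE 0.19; edgeR adjusted p = 0.161).

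Cd48 encodes a lipid-anchored protein of the SLAM family that is absent from most stem cells and present on more mature progenitors (chr1:171681245-171705258, plus strand, NM_007649). It was at 56.0, 82.2 and 149 CPM in the lowest, median and highest Ly6D-Gfra2- libraries, at 67.2, 81.9, 68.8 and 74.6 CPM in Ly6D+Gfra2- replicates 1, 2, 5 and 6, and at 144, 48.8 and 105 CPM in Ly6D+Gfra2+ replicates 4, 5 and 6. The Ly6D+Gfra2+ libraries reached both below and near the top of the other groups, so the 3 groups overlapped. Fitted differences were -0.24 (SE 0.32), 0.67 (SE 0.40) and 0.42 (SE 0.39) for Ly6D+Gfra2- against Ly6D-Gfra2-, Ly6D+Gfra2+ against Ly6D+Gfra2- and Ly6D+Gfra2+ against Ly6D-Gfra2-. None was called, and the last interval, from -0.35 to 1.20, holds changes in either direction.

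Cd24a encodes heat-stable antigen, a short lipid-anchored glycoprotein that marks B-cell precursors (chr10:43579169-43584265, plus strand, NM_009846). Ly6D-Gfra2- libraries held 187, 444 and 624 CPM at the lowest, median and highest. Ly6D+Gfra2- replicates 1, 2, 5 and 6 held 554, 484, 384 and 264 CPM. Ly6D+Gfra2+ replicates 4, 5 and 6 held 1373, 1172 and 938 CPM. Every Ly6D+Gfra2+ library was above every other library, and the Ly6D+Gfra2- range lay inside the Ly6D-Gfra2- range.

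The means of Cd24a were 425 ± 157, 421.5 ± 126 and 1161 ± 218 CPM. The rise into Ly6D+Gfra2+ was 1.87 on the log2 scale both against Ly6D+Gfra2- (SE 0.27; edgeR adjusted p = 0.00424) and against Ly6D-Gfra2- (SE 0.25; edgeR adjusted p = 0.0013), and both calls held in 13 of 13 fits that left out a library. Between Ly6D+Gfra2- and Ly6D-Gfra2- the fitted difference had an interval from -0.42 to 0.42, so a change of more than that size in either direction lay outside 2 SE. Prefix T libraries of the lower groups held less Cd24a than prefix P libraries, at 312 against 539 CPM in Ly6D-Gfra2- and 324 against 519 CPM in Ly6D+Gfra2- (fitted T minus P -0.75, SE 0.21; edgeR adjusted p = 0.262, beside 0.197% of genes called). Among prefix T libraries alone the rise was 1.84 against Ly6D+Gfra2- (SE 0.35; edgeR adjusted p = 0.109, not called, beside 0.0707% of genes) and 1.89 against Ly6D-Gfra2- (SE 0.30; edgeR adjusted p = 0.0192). A fit to the Ly6D+Gfra2+ and Ly6D+Gfra2- libraries alone gave 1.84 (SE 0.29; edgeR adjusted p = 0.0615), which was not called. The transcript shares 69 of its 1767 stretches of 50 bases (3.9%) with the pseudogene Gm6212 on chromosome 14, which was not analysed here, so some reads may belong to either.

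**Figure D2:**
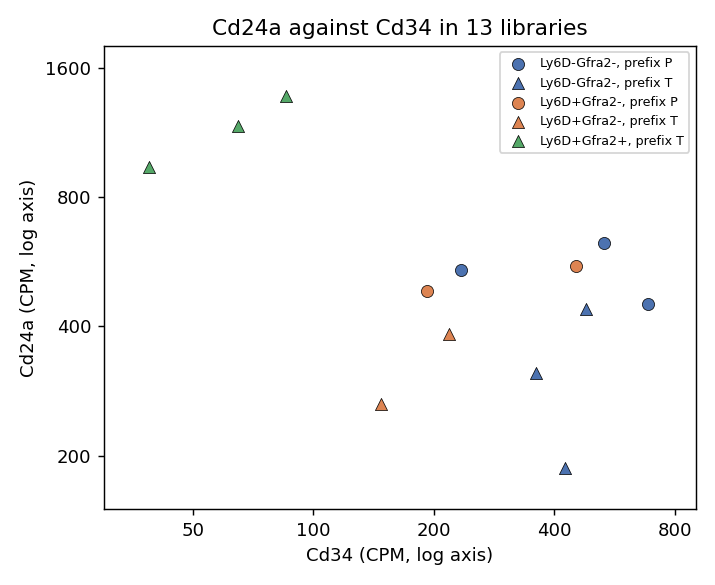
Cd24a (y axis, CPM, log axis) against Cd34 (x axis, CPM, log axis) in each of the 13 libraries, with colour for the sorted group and shape for the prefix. Ly6D+Gfra2+ libraries hold 16.03 to 24.1 times as many Cd24a as Cd34 counts and the other 10 libraries 0.439 to 2.52 times.

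The ratio of Cd24a to Cd34 counts within a library does not depend on the scaling of that library. It was 0.439 to 2.32 in Ly6D-Gfra2-, 1.23 to 2.52 in Ly6D+Gfra2- and 16.03 to 24.1 in Ly6D+Gfra2+ libraries. The highest Ly6D-Gfra2- ratio, 2.32, was that of the library labelled replicate 3, and without it the group reached 1.17, below all Ly6D+Gfra2- libraries. As the ratio was formed after its parts were seen to differ, it is a description. The ratio of Cd93 to Cd44 counts was 2.22 to 4.21, 2.88 to 5.52 and 5.21 to 9.92 in the same order of groups, with Ly6D+Gfra2+ replicate 6 inside the range of Ly6D+Gfra2-.

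Cd93 encodes a C-type lectin-like receptor that is a classical marker of immature B-lineage cells (chr2:148436651-148443535, minus strand, NM_010740). Ly6D-Gfra2- libraries of prefix P held 2236 to 2448 CPM and those of prefix T 1273 to 1646 CPM. Ly6D+Gfra2- replicates 1, 2, 5 and 6 held 2320.1, 2280.0, 2355 and 1717 CPM, and Ly6D+Gfra2+ replicates 4, 5 and 6 held 2846, 2528 and 2408 CPM. Every Ly6D+Gfra2+ library was above every Ly6D+Gfra2- library, but the highest Ly6D-Gfra2- library exceeded Ly6D+Gfra2+ replicate 6.

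Cd93 rose between Ly6D-Gfra2- and Ly6D+Gfra2+ by 0.71 on the log2 scale (SE 0.16; edgeR adjusted p = 0.0345). The call depended on single libraries, since it was lost in 7 of the 13 fits that left out a library, with edgeR adjusted p between 0.0138 and 0.12: without Ly6D-Gfra2- replicates 1, 4, 5 or 6 (0.052, 0.0863, 0.12 and 0.11), without Ly6D+Gfra2+ replicates 4 or 5 (0.0811 and 0.0601) and without Ly6D+Gfra2- replicate 6 (0.0641). It also depended on the prefix and the scaling, at 0.44 (edgeR adjusted p = 0.24) with no prefix term, where 2.03% of genes were called, and 0.45 (edgeR adjusted p = 0.198) with library size alone, where 0.873% were. Within prefix T the groups did not overlap, as for 18.8% of genes, and the log2 fold change was 0.81 (SE 0.17; edgeR adjusted p = 0.069). Against Ly6D+Gfra2- cells it was 0.49 (SE 0.16; edgeR adjusted p = 0.213). The prefix difference of Cd93, T minus P, was -0.47 (SE 0.13; edgeR adjusted p = 0.262). Its transcript shares 47 of 6628 stretches of 50 bases (0.709%) with 91 other genes.

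Bst1 encodes a lipid-anchored ectoenzyme of the ADP-ribosyl cyclase family found on stromal cells and early B-lineage cells (chr5:43818880-43843468, plus strand, NM_009763). It had 0 counts in all 5 prefix P libraries, where 3 counts over them together would be 0.0340 CPM. In prefix T it was at 0, 0.248 and 0.519 CPM in Ly6D-Gfra2- replicates 4, 5 and 6, at 0.933 and 4.26 CPM in Ly6D+Gfra2- replicates 5 and 6, and at 5.04, 2.03 and 23.1 CPM in Ly6D+Gfra2+ replicates 4, 5 and 6. Ly6D+Gfra2+ libraries thus lay above all Ly6D-Gfra2- libraries, overlapped Ly6D+Gfra2- replicate 6 and differed widely among themselves, with 213 of their 274 counts in replicate 6. That library also differed from replicates 4 and 5 in markers of stroma, where Bst1 is also found, and endothelium. Of 10 such markers, 5 were detected in replicate 6 and at 0 in replicates 4 and 5: Col1a2 (59.6 CPM), Cxcl12 (37.6 CPM), Cdh5 (13.4 CPM), Kdr (5.63 CPM) and Col3a1 (1.30 CPM). Col1a1, Lepr, Bgn and Sparc were at 0 in all 3 libraries, and Pecam1 was at 274, 198 and 159 CPM in replicates 4, 5 and 6. Col1a2 also reached 59.7 CPM in Ly6D+Gfra2- replicate 1, with Bst1 at 0. Cdh5 reached 30.5 CPM in Ly6D+Gfra2- replicate 5, with Bst1 at 0.933 CPM. Cxcl12, Kdr and Col3a1 reached no more than 1.19, 1.56 and 0.0508 CPM in any library of the other groups. The summed level of the 10 ran from 188 to 251, 219 to 331 and 198 to 276.5 CPM in Ly6D-Gfra2-, Ly6D+Gfra2- and Ly6D+Gfra2+ libraries. Pecam1 alone was at 159 to 300 CPM in every library. The part of stroma and endothelium in the Bst1 levels was not tested.

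Pooled over the prefix T libraries of a group, Bst1 stood at 0.248 CPM in Ly6D-Gfra2- (7 counts; 95% exact Poisson interval 0.0998 to 0.511), 2.53 CPM in Ly6D+Gfra2- (52 counts; 1.89 to 3.32) and 10.4 CPM in Ly6D+Gfra2+ (274 counts; 9.21 to 11.7). These intervals and the value of 3 counts cover counting error only, since amplified reads are not separate molecules. The edgeR fit gave 4.92 (SE 1.84; adjusted p = 0.226) for Ly6D+Gfra2+ against Ly6D-Gfra2- and 2.29 (SE 2.29; adjusted p = 0.729) against Ly6D+Gfra2-. Without Ly6D+Gfra2+ replicate 6 these were 3.37 (SE 2.005; edgeR adjusted p = 0.371) and 0.84 (SE 4.41; edgeR adjusted p = 0.949). At so few counts the fitted sizes depend on the prior count, and neither was called. The Bst1 transcript shares 22 of its 2807 stretches of 50 bases (0.784%) with 20 other genes, so some of its few reads may belong to those. The prefix and the detection of Bst1 moved together, and the part of the prefix in the Bst1 levels was not tested beyond the values within prefix T.

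Ptprc encodes CD45, a receptor tyrosine phosphatase that sets the activity of Src-family kinases in leukocytes (chr1:138062859-138175756, minus strand, NM_001111316). Its single row covers the gene, so the B220 form used to stage B cells cannot be told from the other splice forms. Levels were 340, 442 and 487 CPM in the lowest, median and highest Ly6D-Gfra2- libraries. Ly6D+Gfra2- replicates 1, 2, 5 and 6 held 487, 477, 527.5 and 641 CPM, and Ly6D+Gfra2+ replicates 4, 5 and 6 held 443, 428 and 422.5 CPM. Ly6D+Gfra2- libraries lay above all Ly6D+Gfra2+ libraries, and above every Ly6D-Gfra2- library except the library labelled replicate 3. The fitted differences were 0.33 (SE 0.15; edgeR adjusted p = 0.9995) for Ly6D+Gfra2- against Ly6D-Gfra2-, -0.41 (SE 0.19; edgeR adjusted p = 0.366) for Ly6D+Gfra2+ against Ly6D+Gfra2- and -0.09 (SE 0.18; edgeR adjusted p = 0.882) for Ly6D+Gfra2+ against Ly6D-Gfra2-, so none was called. The last had an interval from -0.44 to 0.27.

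**Figure D3:**
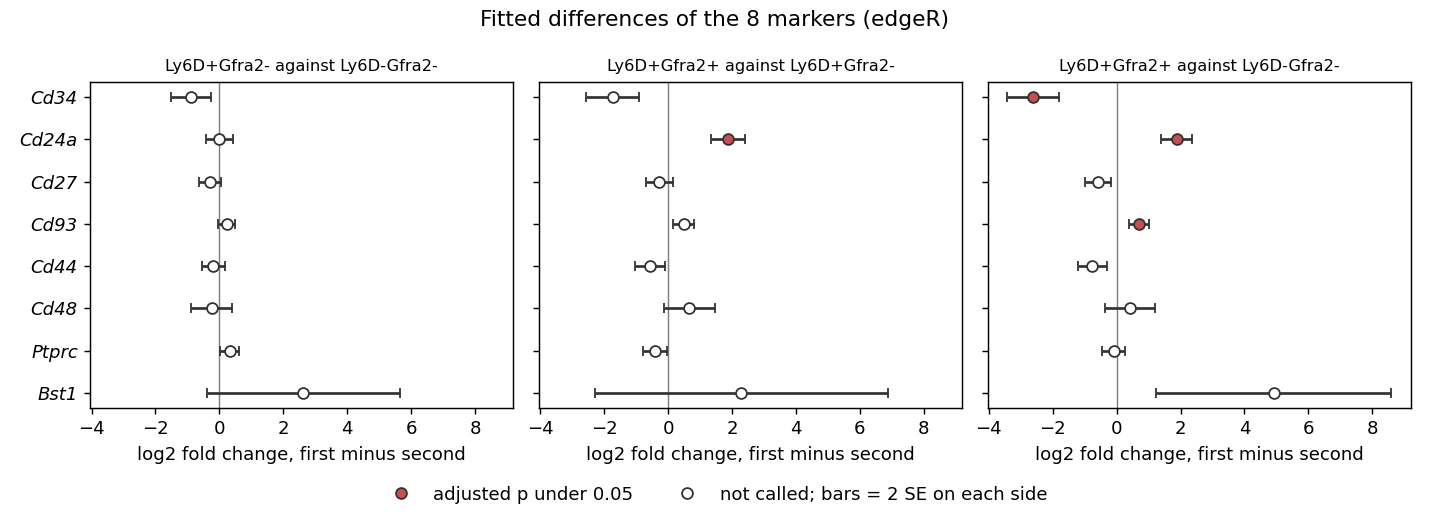
Fitted log2 fold change of each marker (x axis) in the 3 comparisons (panels), as points with bars of 2 SE on each side, filled where the edgeR adjusted p was under 0.05. Filled points are Cd24a at 1.87 against Ly6D+Gfra2-, and Cd34 at -2.62, Cd24a at 1.87 and Cd93 at 0.71 against Ly6D-Gfra2-.

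Levels of different genes can be set side by side only per length, here as CPM per kilobase (kb) of the RefSeq-matched transcript. On that scale Cd27, Cd93 and Cd24a led the Ly6D-Gfra2- libraries at 308 ± 49.2, 286 ± 73.4 and 234 ± 86.6 CPM per kb, followed by Cd34 at 177 ± 60.4, Cd44 at 103 ± 14.6, Ptprc at 83.6 ± 11.7 and Cd48 at 75.9 ± 27.8. Each neighbour in that order overlapped the next, except that all libraries held more Cd48 than Bst1. In Ly6D+Gfra2- libraries the order was Cd93, Cd27 and Cd24a (325, 251 and 232 CPM per kb), whose ranges overlapped and which all lay above Ptprc at 105 CPM per kb. There Cd34, at 98.9 CPM per kb, could not be ordered against Ptprc or Cd44 beyond the spread.

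The Ly6D+Gfra2+ libraries gave the clearest order per kb. Cd24a led at 639 ± 120 CPM per kb, above Cd93 at 389 ± 33.9 and Cd27 at 204 ± 34.3, with no overlap between neighbours. Ptprc, Cd48 and Cd44 followed at 85.0, 83.8 and 61.0 CPM per kb and overlapped in part. Cd34 was next at 24.7 ± 9.17 CPM per kb, below every library's value for Cd44, and Bst1 last at 3.52 ± 3.99.

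**Figure D4:**
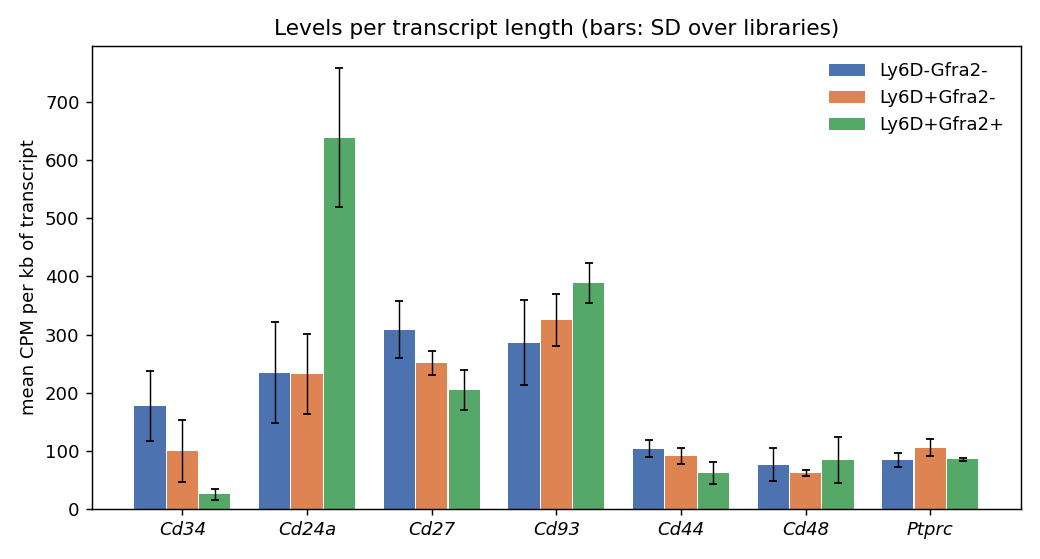
Mean level per kb of transcript (y axis, CPM per kb) of 7 markers (x axis) in the 3 sorted groups (colours), with bars of 1 SD over libraries. Bst1, at no more than 8.08 CPM per kb in any library, is left out, and Cd24a in Ly6D+Gfra2+ cells stands highest at 639 CPM per kb.

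The markers were compared in shape with each other and with other genes. The measure was the root mean square difference (RMS) of mean-centred log2(CPM + 1) over the 13 libraries. A small value means that the centred levels of a pair of genes lay close over the libraries. Genes that vary little also give small values, so a small value alone does not show that a pair went up and down together. Among the pairs of markers, Cd27 and Cd44 were closest (0.263), while Cd34 was farthest from Bst1 (2.50) and from Cd24a (1.81). For Cd24a the nearest of 7314 genes were Piezo1, a mechanically gated channel (0.329), and Chordc1 (0.428), against a median of 0.994 over all genes. Piezo1 was at 122, 102 and 269.5 CPM in Ly6D-Gfra2-, Ly6D+Gfra2- and Ly6D+Gfra2+ libraries. The genes nearest to Cd34 were Il1r1, an interleukin-1 receptor (0.604; 168, 115 and 31.4 CPM), and Pomt1 (0.639), against a median of 1.36. These ranked 4 and 8 with a pseudocount of 5 in place of 1.

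Neighbours of the other markers were as follows. Cd44 lay next to Vezf1 (0.133) and Kif5b (0.207), Ptprc next to Phkb (0.163) and Suds3 (0.175), and Cd93 next to the beta-tubulin gene Tubb5 (0.183) and Zfp26 (0.184). Cops4 (0.194) and Thrap3 (0.214) were nearest to Cd27, and Slc35a4 (0.237) and Hnrnpab (0.252) to Cd48. For Bst1, Zfp36l1 (0.615) and Dgka (0.748) came first with a pseudocount of 1 but ranked 66 and 72 with a pseudocount of 5, so its neighbours depend on that choice. These likenesses are across libraries that share depth and prefix, and they describe levels only.

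Genes that work with the markers were read from a list of 32 ligands, partners and relatives, of which 25 were tested and 0 were called in any comparison by edgeR. Unadjusted edgeR p-values were under 0.05 for 3, 5 and 5 of them in Ly6D+Gfra2- against Ly6D-Gfra2-, Ly6D+Gfra2+ against Ly6D+Gfra2- and Ly6D+Gfra2+ against Ly6D-Gfra2-. Over all genes tested these shares were 4.71, 13.2 and 15.4%. In the same order DESeq2 called 0, 2 (Msn and Traf5) and 2 (Slamf7 and Traf5), and limma voom 0, 0 and 1 (Msn). Their median log2 fold change was 0.15, -0.21 and 0.04. Moesin (Msn), which links the cytoplasmic tail of CD44 to actin, was at 832 ± 113, 808 ± 381 and 1836 ± 465 CPM in Ly6D-Gfra2-, Ly6D+Gfra2- and Ly6D+Gfra2+ libraries (log2 fold change of Ly6D+Gfra2+ against Ly6D+Gfra2- 1.07, SE 0.29; edgeR adjusted p = 0.117). Traf5, which carries the signal of CD27, was at 8.64 ± 5.41, 6.71 ± 6.59 and 0.219 ± 0.286 CPM (Ly6D+Gfra2+ against Ly6D-Gfra2- -5.48, SE 1.54; edgeR adjusted p = 0.0942). The CD27 ligand Cd70, the CD48 ligand Cd2 and the CD93-related lectin Clec14a were at 0 in all libraries, whereas Cd244a, the other CD48 receptor, was at 71.6, 110.0 and 78.3 CPM. Slamf7, which lies 28207 bases from Cd48, was at 4.42 ± 3.41, 0.488 ± 0.347 and 0.116 ± 0.115 CPM, and Cd38, the relative of Bst1 that lies 25340 bases from it, at 6.56, 4.41 and 6.71 CPM. Neither neighbour was called by edgeR.

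Other surface markers of the same stages were read from 4 lists in the same fit. Between Ly6D+Gfra2- and Ly6D-Gfra2-, edgeR called 0 of their genes, with an unadjusted p under 0.05 for 1 stem and multipotent, 4 lymphoid, 2 B-cell precursor and 4 lineage exclusion markers. DESeq2 called 1 of them, Cd79a, and limma voom 1, Ly6d. Of 15 stem and multipotent progenitor markers, 11 were tested and 0 were called in the other 2 comparisons by edgeR, DESeq2 or limma voom (1 had an unadjusted edgeR p under 0.05 in each), with median log2 fold changes of -0.43, 0.32 and -0.09 in the order above. Of 9 lymphoid progenitor markers, all tested (medians 0.62, 0.54 and 0.91), those that rose between Ly6D-Gfra2- and Ly6D+Gfra2+ included Gfra2 itself, by which the cells were sorted, and the interleukin-7 receptor Il7r (1.19, SE 0.24; edgeR adjusted p = 0.0228). Against Ly6D+Gfra2- cells, Gfra2 was the 1 called.

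Of 16 B-cell precursor markers, 11 were tested (medians 0.21, 0.83 and 0.44), and Cd79a, a chain of the B-cell receptor complex, was the 1 called by edgeR and DESeq2 in each comparison with Ly6D+Gfra2+, whereas limma voom called it against Ly6D-Gfra2- only. It rose to 153 ± 89.3 CPM from 0.428 ± 0.348 CPM in the Ly6D-Gfra2- libraries (8.23, SE 0.91; edgeR adjusted p = 0.000166) and from 4.36 ± 2.32 CPM in the Ly6D+Gfra2- libraries (5.04, SE 0.84; edgeR adjusted p = 0.0159). Among 15 markers used to exclude other lineages, 10 were tested (medians 0.39, -1.55 and -1.63), and the myeloid integrin Itgam was the 1 called by edgeR, at -2.87 on the log2 scale (SE 0.54; edgeR adjusted p = 0.0157) for Ly6D+Gfra2+ against Ly6D-Gfra2-. DESeq2 called 3, Il2rb, Itgam and Itgax, in each comparison with Ly6D+Gfra2+, and limma voom 0.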

How the data were processed

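Total RNA of 13 libraries was sequenced after preparation with Qiagen and NuGEN kits, per the labels' protocols. The deposited values are raw counts per RefSeq identifier, per the file headers, with 1 table per library. The submitters' processing notes name FastQC, HISAT, TopHat, HOMER, DESeq and the mm10 build. The role and version of these tools, the annotation release, the strand setting and the treatment of reads with several matches are not given in the sources used here. Of 24072 identifiers, 23815 were named from RefSeq (GRCm38.p6), 144 from GENCODE M21 and 113 had no name.

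Counts were scaled with TMM and fitted in R 4.3.3 with edgeR 4.0.16 (quasi-likelihood, two-sided), with terms for group and prefix, after filterByExpr (minimum count 10, minimum total 15) left 12722 genes. Benjamini-Hochberg adjustment covered all genes tested. Levels per kb divide CPM by the length of the GENCODE transcript matched to each identifier. The design was tested on counts simulated from the fitted levels and spread, with changes set in genes drawn from all those tested. The fit found 37, 22 and 32% of 4-fold and 68, 56 and 64% of 16-fold changes. These are for Ly6D+Gfra2- against Ly6D-Gfra2-, then Ly6D+Gfra2+ against each of Ly6D+Gfra2- and Ly6D-Gfra2-. False calls were 4, 4 and 1 of 109, 82 and 97 calls. A gene that was not called may thus still differ. The simulated counts held no prefix effect. By edgeR's coefficient of biological variation, the markers other than Bst1 had a spread of 0.208 to 0.371. The median over all genes tested was 0.643, so the shares found need not hold for those markers. No pair of libraries held identical counts (0 of 78).

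The markers, the gene lists and the tests were chosen with earlier results of these data known. By rule the text names the 8 markers, the 2 genes nearest to each among those with a mean of at least 20 CPM, called genes and up to 3 genes with the smallest p per list, and Ly6d and Gfra2. A few of these are not reported here, and other partners, list members and CLP genes were named after their values were seen. Alternatives were DESeq2 1.42.0, limma 3.58.1 voom, other scalings and filters, no prefix term, the replicate number as a block, subsets by group or prefix, and each library left out. A fit to prefix P that left out the library labelled Ly6D-Gfra2- replicate 3 was added after seeing the data.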

Additional observations from a re-analysis of the deposited data

Results flagged for a closer look

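The lowest Ly6D+Gfra2- library for Cd93, replicate 6 at 1717 CPM, stood apart from the other 3 libraries of its group, which held 2280.0 to 2355 CPM. Its gap to the nearest library, divided by the range of the group, exceeded Dixon's 95% critical value. It was the 1 of 16 tested sets of a marker and a group to do so, and chance gives about 1 in 20. Without this library the log2 fold change of Cd93 between Ly6D+Gfra2+ and Ly6D-Gfra2- was 0.70 (edgeR adjusted p = 0.0641).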

How the results depend on the processing

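Of 586 refitted fold changes of the 8 markers, 550 kept direction and side of the threshold, 15 lost a call, 7 gained one and 14 changed sign, all of the 14 without a call; the cause was not tested. The sign changes between Ly6D+Gfra2- and Ly6D-Gfra2- were those of Cd24a (0.000223 with at least 5 CPM in 3 libraries, 0.0558 within prefix T, and -0.12 to 0.14 with each library left out), Cd93 within prefix P (-0.0226, or -0.0569 when the library labelled Ly6D-Gfra2- replicate 3 was left out), and Cd44 and Cd48 within prefix T (0.10 and 0.10, or 0.000826 and 0.33 with the replicate block). Ptprc turned to 0.0236 between Ly6D+Gfra2+ and Ly6D-Gfra2- with no prefix term. The r across genes between same-numbered libraries ran from -0.0215 to 0.0390. It was taken on deviations from means of few libraries per group and prefix, so it cannot decide whether the numbers pair them. The replicate block in place of the prefix left 8, 25 and 92 genes called in the 3 comparisons (Ly6D+Gfra2- against Ly6D-Gfra2-, then Ly6D+Gfra2+ against each of Ly6D+Gfra2- and Ly6D-Gfra2-), against 0, 52 and 177, and within prefix T 1, 7 and 59; with it Cd93 lost its call (0.71; edgeR adjusted p = 0.0659). Genes called numbered 54, 700 and 940 by DESeq2, 1, 25 and 109 by limma voom, 9, 164 and 318 with no filter, and 1, 9 and 62 within prefix T. With no prefix term 103 genes were called against Ly6D+Gfra2-, with library size alone 111 against Ly6D-Gfra2-, and with only the groups compared 8 and 72. Leaving out each library gave 0 to 16 (16 without the library labelled Ly6D-Gfra2- replicate 3), 12 to 184 and 49 to 372 genes, the highest of the last 2 without Ly6D+Gfra2+ replicate 6. Against Ly6D+Gfra2-, 2 markers were called under DESeq2, library size alone, no filter, no prefix term and the replicate block, 0 with only the groups compared and within prefix T with or without the block, and 1 in every fit that left out a library. Against Ly6D-Gfra2-, leaving out a library gave 2 to 4 markers. Library size alone moved the median of all genes to -0.09, -0.15 and -0.25, and against that median Cd93, at 0.45, differs by about as much as in the TMM fit. Prefix P holds no Ly6D+Gfra2+ library, so its fits gave no value for those comparisons, and Bst1 had none where a filter removed it. Of the markers, Bst1 had the fewest counts, with 7 over all Ly6D-Gfra2- libraries. All 5 prefix P libraries held 0, at totals of 9841953 to 23705975 counts.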

Other observations

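Markers of other cell types were also summed per library. Levels of 12 erythroid and megakaryocyte markers came to 15.6 to 430.2 CPM in Ly6D-Gfra2-, 11.95 to 53.8 CPM in Ly6D+Gfra2- and 15.9 to 113 CPM in Ly6D+Gfra2+ libraries, and the highest was Ly6D-Gfra2- replicate 5. For 7 mature B and plasma cell markers the sums were 21.4 to 133.5, 66.6 to 119.8 and 30.35 to 208 CPM, with Ms4a1 at 0 in every library. For 10 T and NK cell markers they were 62.4 to 83.15, 55.5 to 83.8 and 14.8 to 139.5 CPM, and for 10 stroma and endothelium markers 188 to 251, 219 to 331 and 198 to 276.5 CPM. Of these 4 lists 9, 6, 3 and 3 genes were tested, and edgeR called 0 in any comparison (unadjusted p under 0.05 for at most 3, 0, 0 and 1), limma voom 0 and DESeq2 1, the erythroid gene Car1 in Ly6D+Gfra2+ against Ly6D+Gfra2-. The shares of all genes with an unadjusted edgeR p under 0.05 were 4.71, 13.2 and 15.4% in the 3 comparisons, in the order above.

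The fitted spread between libraries of a group, as edgeR's coefficient of biological variation, was 0.358 for Cd34 and 0.266 for Cd24a, against a median of 0.643 over all genes tested.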
